A study of Mus musculus with 8 samples.

Results

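The genes described here encode the machinery that brings proteins into mitochondria, cuts off their import signals and folds them. The list of 36 mouse gene symbols was chosen by gene function with the log2 fold changes and calls of this comparison of genotypes already known, and Timm23 was noted in it as a predicted miR-140-5p target, so the differences between genotypes given here are a description of chosen genes and support nothing on their own. All 36 were found among the 52325 gene identifiers of the files, and all 36 passed the filter on low values, which required 0.5 TPM in 4 of the 8 libraries. TPM, a transcript count relative to the library's total, is scaled by transcript length, so levels can be compared between genes.

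RNA was from 4 wild-type and 4 Mir140-null samples of rib (costal) chondrocytes of mice at 7 days of age. The cells were freed from cartilage with collagenase. The null mice lack the Mir140 locus in every cell after a CRISPR/Cas9 deletion. Founders were of mixed C57BL/6 and CBA/ca origin and were backcrossed onto C57BL/6J. Crosses of heterozygous Mir140+/- mice then gave a wild-type and a null line, so line and genotype cannot be told apart. No other allele or agent was named. Mir140 itself was listed at 0 TPM in 7 libraries, including all 4 wild-type libraries, while the library labelled Mir140-null replicate 2 listed 8.86 TPM, so in these libraries, which were made from poly(A) RNA, it did not check the labels.

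Nearly all mitochondrial proteins are made in the cytosol and enter through the TOM complex of the outer membrane. From there, proteins with a cleavable presequence pass through the TIM23 complex and are pulled into the matrix by a motor built around Hspa9. Carrier proteins of the inner membrane are escorted by small TIM chaperones of the intermembrane space to the TIM22 complex, and barrel-shaped proteins are placed in the outer membrane by the SAM complex. In the matrix, the processing peptidase removes the presequence, and the chaperonin Hspd1 with its lid Hspe1 folds many of the products. Cartilage is poorly supplied with blood, and its chondrocytes are known for relying mainly on glycolysis.

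The Mir140 locus gives miR-140-5p and the isomiRs of miR-140-3p. The isomiR sequences are shown because the seed, bases 2 to 8 in capitals, decides which sites were looked for in the import genes, and because the 2 isomiRs differ by 1 base at the 5′ end. The RefSeq entry (GRCm38.p6) of mouse miR-140-3p, at chr8:107551288-107551308 (plus strand), is shown as miR-140-3p.2. The sequence shown as miR-140-3p.1 is that entry without its first base, at chr8:107551289-107551308. The human isomiRs given these names in the study have the same seeds but run further at the 3′ end.
miR-140-3p.2: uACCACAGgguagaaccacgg
miR-140-3p.1: aCCACAGGguagaaccacgg

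Sites for these seeds were looked for in the 3′UTRs of the import genes, taken from the GENCODE M21 transcript with the longest coding sequence. A 7m8 site pairs with bases 2 to 8, a 7a1 site pairs with bases 2 to 7 and has an A opposite base 1, and an 8mer has both. The study's lists of predicted targets come from TargetScanHuman and were matched here by gene symbol, so a gene named otherwise in human would be missed. Timm23 is on the list for miR-140-5p, and Hspd1 on that for miR-140-3p.1. No import gene was found on that for miR-140-3p.2. The site of Timm23 is shown with those of Mtx2 and Timm17a, the other called genes with a miR-140-5p site, and with that of Hspd1. The window of Timm23 holds a 7m8 site at chr14:32180291-32180297 (minus strand), that of Mtx2 one at chr2:74876570-74876576 (plus strand) and that of Timm17a one at chr1:135299629-135299635 (minus strand); Hspd1 has a 7a1 site for miR-140-3p.1 at chr1:55077915-55077921 (minus strand). Capitals mark the site, and coordinates are those of GRCm38 (mm10).
Timm23: ccaaactggaaAACCACTtactctccaaat
Mtx2: ctcaaaaccaaAACCACTgttttttgaaac
Timm17a: gggaaatatacAACCACTgaactataccct
Hspd1: aagcagcctttCTGTGGAgggtgggaatga

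At least 1 miR-140-5p site was found in 7 of the 36 import genes (19.4%), namely Tomm20, Mtx2, Timm9, Timm23, Timm17a, Dnajc19 and Pmpca. Over the 12988 tested genes with a 3′UTR the share was 12.6%. For miR-140-3p.1 it was 8 of 36 (22.2%) against 27.3% of all tested genes, and for miR-140-3p.2 also 8 of 36 (22.2%) against 22.3%. A match to a seed is a description of the sequence and was not measured as a target site. The log2 fold change between genotypes, described below, had a median of 0.48 over the 7 genes with a miR-140-5p site, 3 of which were called, and of 0.24 over the 29 without one, 7 of which were called. The corresponding medians were 0.26 with and 0.31 without a miR-140-3p.1 site, and 0.30 with and 0.28 without a miR-140-3p.2 site. For miR-140-3p.1, 1 of 8 genes with a site and 9 of 28 without one were called. For miR-140-3p.2 these counts were 2 of 8 and 8 of 28. The genes were chosen with these values known, so the splits are only a description and were not tested.

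In the wild-type libraries the import genes lay between 1.41 and 174.0 TPM as means of 4. Hspa9 (mortalin), the Hsp70 of the matrix, was highest at 174.0 ± 12.1 TPM (SD, n = 4), with the 4 libraries between 159.5 and 188.5. Hspe1 followed at 126.0 ± 54.6 TPM (SD, n = 4), Tomm20, a receptor for presequences, at 92.3 ± 13.4 TPM, Hspd1 at 71.5 ± 29.4 TPM and Pmpcb, the catalytic subunit of the processing peptidase, at 63.5 ± 9.02 TPM. Hspa9 and Hspe1 overlapped in their ranges, as did Hspe1 with Tomm20 and with Hspd1, so the order among these neighbours was not beyond their spread. The 5 genes at or above 50 TPM thus comprised 3 matrix chaperones, a receptor and a peptidase subunit. Another 12 genes had means under 10 TPM, and the lowest were Tomm40l, a second form of the TOM channel, at 2.93 ± 1.07 TPM (SD, n = 4) and Chchd4 (Mia40), the oxidoreductase that traps proteins in the intermembrane space, at 1.41 ± 0.208 TPM.

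**Figure D1:**
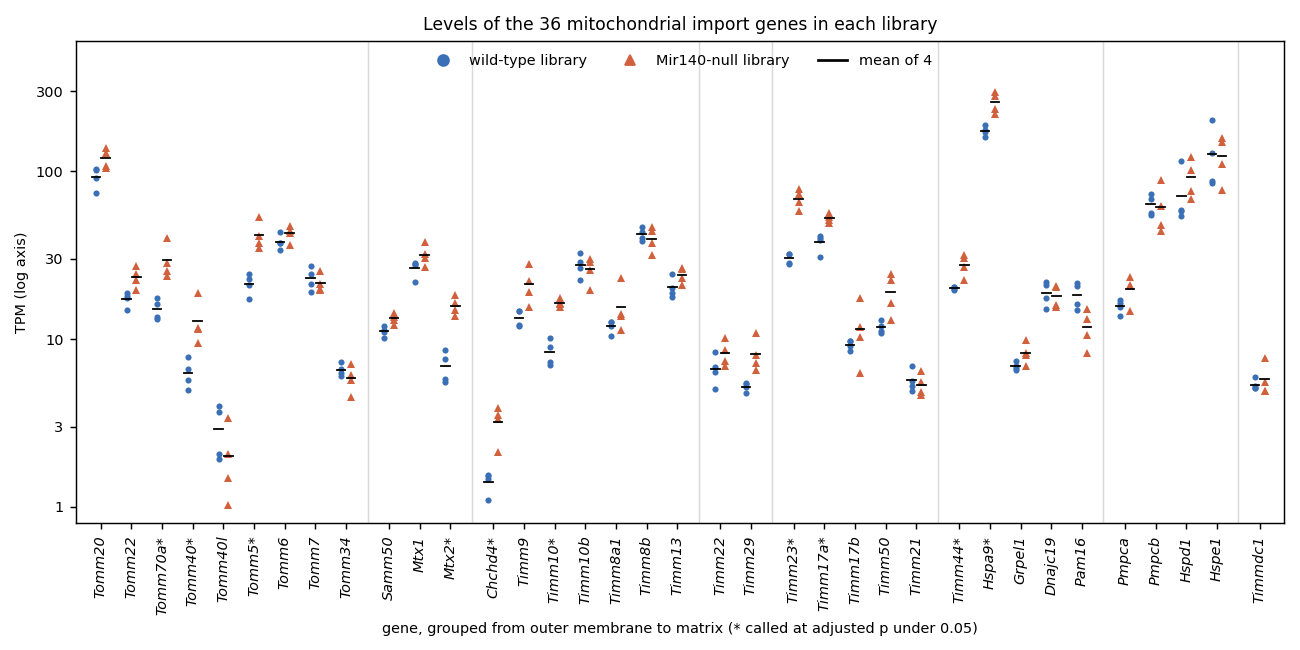
TPM (log axis) of each of the 36 import genes in the 4 wild-type libraries (circles) and the 4 Mir140-null libraries (triangles), with a bar at the mean of 4; grey lines separate, from left to right, TOM, SAM, intermembrane space, TIM22, TIM23, the motor, cleavage and folding, and Timmdc1. Asterisks mark the 10 called genes, and for Timm23 all 4 Mir140-null libraries, at 58.2 to 78 TPM, sit above the wild-type libraries, at 28.1 to 32.2 TPM.

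Between genotypes, 10 of the 36 import genes were called higher in Mir140-null chondrocytes (limma on log2(TPM + 1), adjusted p under 0.05 over 17177 genes) and 0 were called lower. Over all genes tested, 10.5% were called higher and 6.4% lower. The 10 genes were Timm23, Mtx2, Tomm5, Timm10, Tomm40, Tomm70a, Chchd4, Hspa9, Timm17a and Timm44, and they came from the outer membrane, the intermembrane space, TIM23 and the motor. At an unadjusted p under 0.05 the limma fit held 16 genes in the higher direction and 1, Pam16, in the lower. Over the 36 genes the log2 fold change had a median of 0.30, against -0.01 over all genes tested, and 27 of the 36 were above 0, against 49.3% of all genes. A fit of only the 9668 genes with a mean of at least 5 TPM called 17% of them higher, with a median of 0.112. It called 11 import genes higher. Because the genes were selected with this contrast known, no test was made over the list.

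The ranges of the genotypes did not overlap for 16 of the 36 genes, all with the 4 Mir140-null libraries higher, and for 0 genes with them lower. Over all genes tested these shares were 15.7% and 10.2%. The 16 were the 10 called genes and Tomm20, Tomm22, Samm50, Timm9, Timm29 and Timm50. Summed over the 36 genes, the level was 958.6 to 1110.0 TPM in the wild-type and 1117.5 to 1519.6 TPM in the Mir140-null libraries.

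**Figure D2:**
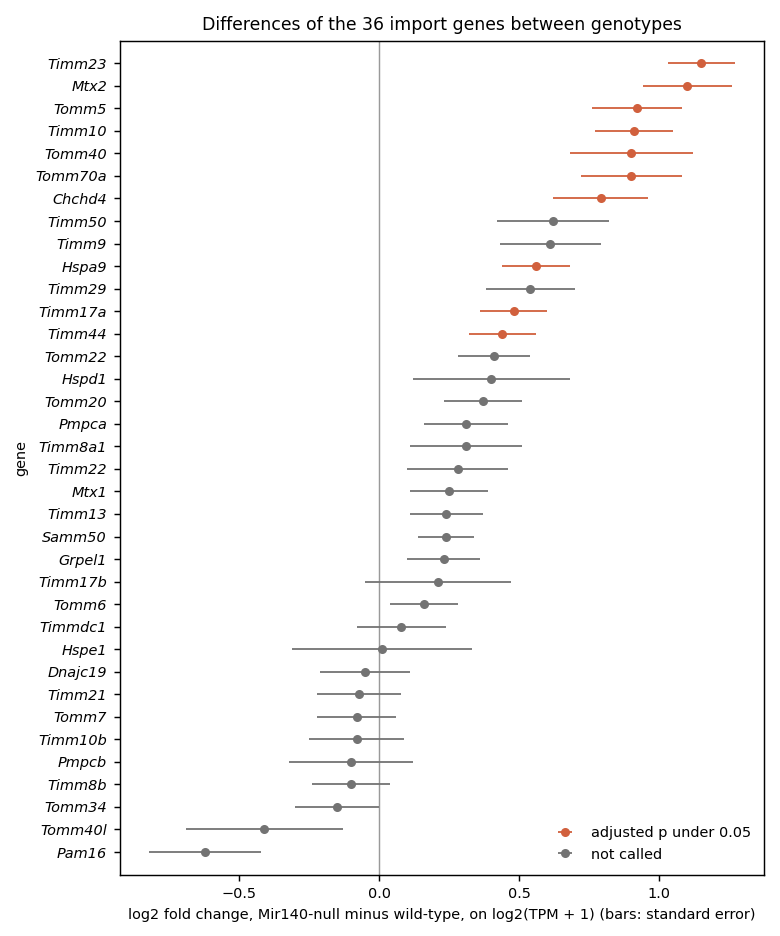
Log2 fold change (Mir140-null minus wild-type, on log2(TPM + 1)) of the 36 import genes from the limma fit, with standard errors as bars and the 10 called genes in orange. The values run from -0.62 for Pam16 to 1.15 for Timm23, and 27 of 36 lie above 0.

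In the TOM complex, 3 of 9 genes were called higher, with a median log2 fold change of 0.37. Tomm40 forms the channel through the outer membrane. Its levels were 7.83, 5.72, 6.61 and 5 TPM in wild-type libraries compared with 18.9, 11.7, 9.41 and 11.5 TPM in Mir140-null replicates 1 to 4 (log2 fold change 0.90, SE 0.22, limma adjusted p = 0.03). Every Mir140-null library was above every wild-type library, and replicate 1 stood highest. Tomm5, a small subunit at the channel, was at 17.4, 21, 24.5 and 22.8 TPM in wild-type libraries compared with 53.3, 37.2, 41.1 and 35 TPM in Mir140-null libraries (log2 fold change 0.92, SE 0.16, limma adjusted p = 0.0123). Tomm70a, the receptor for carrier proteins and for clients of cytosolic Hsp70 and Hsp90, was at 13.1, 17.5, 13.6 and 16.1 TPM and at 40, 28.4, 25.3 and 23.9 TPM (log2 fold change 0.90, SE 0.18, limma adjusted p = 0.0171). In all 3 genes the groups were apart.

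The remaining TOM genes were not called. The presequence receptors Tomm20 and Tomm22 had log2 fold changes of 0.37 (limma adjusted p = 0.108) and 0.41 (limma adjusted p = 0.0658). The small subunits Tomm6 and Tomm7 were at 38 ± 3.95 and 23 ± 3.59 TPM in wild-type libraries compared with 42.8 ± 4.67 and 21.7 ± 2.73 TPM in Mir140-null ones (SD, n = 4), with overlapping ranges. Their difference from Tomm5 was not tested. Tomm34, a cytosolic co-chaperone, was at 6.57 ± 0.585 TPM in wild-type libraries compared with 5.87 ± 1.05 TPM in Mir140-null libraries.

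The SAM complex had 1 called gene of 3. Mtx2 (metaxin 2), which works with Samm50 and Mtx1, was at 5.74, 5.55, 7.62 and 8.66 TPM in wild-type libraries compared with 18.2, 13.7, 16.3 and 14.9 TPM in Mir140-null libraries (log2 fold change 1.10, SE 0.16, limma adjusted p = 0.00837). The groups were far apart, with the lowest Mir140-null library at 13.7 TPM and the highest wild-type library at 8.66 TPM. Samm50, the barrel-forming core subunit, was at 11.1 ± 0.688 and 13.3 ± 0.912 TPM (SD, n = 4) without overlap but was not called (log2 fold change 0.24, limma adjusted p = 0.146). Mtx1 was at 26.5 ± 3.02 and 31.8 ± 4.53 TPM with overlapping ranges.

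Of the 7 genes of the intermembrane space, 2 were called. Timm10, which forms a ring with Timm9 that escorts carrier proteins, was at 7, 8.97, 7.32 and 10.2 TPM in wild-type libraries compared with 17.5, 16.4, 16.1 and 15.6 TPM in Mir140-null libraries (log2 fold change 0.91, SE 0.14, limma adjusted p = 0.00837). Its 4 Mir140-null libraries lay between 15.6 and 17.5 TPM. Timm9 was at 11.9, 12.2, 14.7 and 14.6 TPM and at 28, 22.2, 19.2 and 15.5 TPM (log2 fold change 0.61, limma adjusted p = 0.0535), which missed the threshold. Chchd4 was at 1.1, 1.47, 1.54 and 1.53 TPM and at 3.89, 3.54, 3.34 and 2.11 TPM (log2 fold change 0.79, SE 0.17, limma adjusted p = 0.0201). At so low a level the added pseudocount of 1 understates the change, the ratio of the means being 2.28. The other small TIM genes differed less: Timm8a1 and Timm13, which form the second ring, had log2 fold changes of 0.31 and 0.24, and Timm8b and Timm10b had -0.10 and -0.08, none of them called.

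TIM22, the translocase for carriers, had 0 of its 2 listed genes called. Timm22, its channel, was at 6.63 ± 1.35 TPM in wild-type libraries compared with 8.27 ± 1.48 TPM in Mir140-null ones (SD, n = 4), with overlap. Timm29, another of its subunits, was at 5.21 ± 0.328 and 8.14 ± 1.88 TPM without overlap and lay just outside the threshold (log2 fold change 0.54, limma adjusted p = 0.0526).

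In TIM23, 2 of 5 genes were called, and Timm23 had the largest log2 fold change of the 36. Timm23, the central subunit of the presequence translocase, was at 28.4, 32.2, 28.1 and 32.2 TPM in wild-type libraries compared with 78, 73.1, 65.4 and 58.2 TPM in Mir140-null libraries (log2 fold change 1.15, SE 0.12, limma adjusted p = 0.00393). The ratio of the means was 2.27, and Timm23 stood 32nd of all 17177 genes when ordered by p. Timm17a, which lines the translocation path with Timm23, was at 30.7, 40.1, 39 and 41.1 TPM and at 56.6, 51.2, 53.2 and 49.5 TPM (log2 fold change 0.48, SE 0.12, limma adjusted p = 0.03), a call that held under 9 of 19 alternative settings and 2 of the 8 fits that left out a library. Its paralogue Timm17b was at 9.24 ± 0.567 TPM in wild-type libraries compared with 11.5 ± 4.71 TPM in Mir140-null ones (SD, n = 4), with the latter spread from 6.27 to 17.6 TPM. Timm50, the receptor of TIM23, was at 11.9, 12.9, 10.9 and 11.2 TPM and at 22.5, 13, 24.3 and 16.4 TPM (log2 fold change 0.62, limma adjusted p = 0.0624), so that its lowest Mir140-null library was barely above the highest wild-type library. Timm21, which links TOM to TIM23, was at 5.67 ± 0.874 and 5.35 ± 0.804 TPM.

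The motor also had 2 of 5 genes called. Hspa9 was at 159.5, 188.5, 176.8 and 171.2 TPM in wild-type libraries compared with 297.2, 282.8, 218.6 and 235.8 TPM in Mir140-null libraries (log2 fold change 0.56, SE 0.12, limma adjusted p = 0.0207). In TPM this was the largest difference between means among the called genes, 174.0 against 258.6. Timm44, which docks Hspa9 at the channel, was at 19.7, 20.3, 19.9 and 20.5 TPM and at 30.5, 31.6, 26.7 and 22.4 TPM (log2 fold change 0.44, SE 0.12, limma adjusted p = 0.0471), the called gene nearest to the threshold. Its call held under 5 of 19 alternative settings and 1 of the 8 fits that left out a library. Grpel1, the nucleotide exchange factor of Hspa9, had a log2 fold change of 0.23 and was not called.

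Pam16 ran in the other direction. This protein pairs with the J-protein Dnajc19 (or its paralogue Dnajc15) and holds back its stimulation of Hspa9. Pam16 was at 20.7, 14.8, 21.7 and 16.2 TPM in wild-type libraries compared with 8.28, 10.5, 13.1 and 15 TPM in Mir140-null libraries (log2 fold change -0.62, SE 0.20, limma adjusted p = 0.07). Only the highest Mir140-null library, at 15 TPM, passed the lowest wild-type library, at 14.8 TPM. Pam16 was not called here; it was called lower under 3 alternative settings. Dnajc19 was at 20.9, 15, 22 and 17.6 TPM and at 15.9, 15.6, 20.3 and 20.6 TPM. An annotated processed pseudogene, Dnajc19-ps, was listed at 4.5, 7.91, 0 and 6.13 TPM in wild-type libraries compared with 0.823, 2.27, 2.58 and 0.00512 TPM in Mir140-null libraries, and how reads were shared between the gene and this copy is uncertain.

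None of the 4 genes for cleavage and folding in the matrix was called. Pmpca, the partner of Pmpcb in the peptidase, was at 15.7 ± 1.41 TPM in wild-type libraries compared with 20 ± 3.67 TPM in Mir140-null ones (SD, n = 4), and Pmpcb at 63.5 ± 9.02 and 60.9 ± 20.3 TPM. Timmdc1, an assembly factor of respiratory complex I that carries a TIMM name, was at 5.34 ± 0.397 and 5.77 ± 1.32 TPM, with overlap.

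Hspd1 and Hspe1 varied more within than between genotypes. Hspd1 was at 115.4, 58, 58.4 and 54.1 TPM in wild-type libraries compared with 121.7, 102.1, 76.1 and 68.5 TPM in Mir140-null libraries (log2 fold change 0.40, SE 0.28, limma adjusted p = 0.348). Hspe1 was at 202.3, 85.6, 128.8 and 87.5 TPM and at 149.2, 157.7, 110.8 and 77.8 TPM (log2 fold change 0.01, SE 0.32, limma adjusted p = 0.981). Wild-type replicate 1 was the highest wild-type library for both. Without that library the log2 fold change of Hspd1 was 0.65 (limma adjusted p = 0.0842) and that of Hspe1 0.27 (limma adjusted p = 0.536). Hspd1, listed as predicted for miR-140-3p.1, was called under 0 of 19 alternative settings.

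The same library was highest among the wild-type for the cytosolic chaperones that deliver preproteins to TOM. Dnaja1, a co-chaperone of Hsp70, was at 442.7 TPM in wild-type replicate 1 and 145.3 to 171.1 TPM in the other wild-type libraries. Hsp90aa1 was at 3356.1 TPM against 1436.9 to 1763.5 TPM, and Hspa8 at 5747.4 TPM against 3107.6 to 3875.3 TPM. Among the Mir140-null libraries, replicate 2 was the highest for Dnaja1 (236.1 TPM), Hsp90aa1 (2214.9 TPM), Hspa8 (5136.9 TPM) and Hspe1 (157.7 TPM). Hspa9 did not follow this order, since wild-type replicate 1, at 159.5 TPM, was its lowest wild-type library. The files annotate 5 processed pseudogenes of Hspd1 and 6 of Hspe1, listed at up to 0.789 and 3.35 TPM, so a share of their reads is uncertain.

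**Figure D3:**
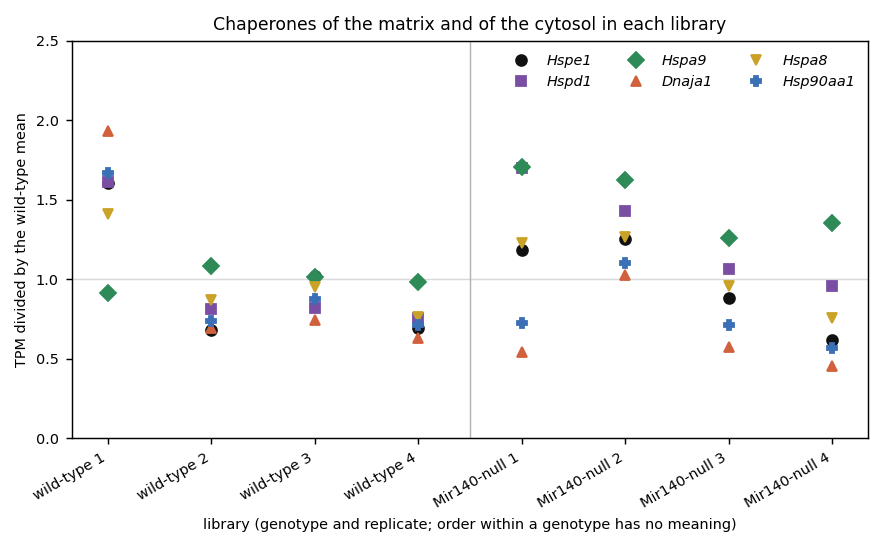
TPM of the matrix chaperones Hspe1, Hspd1 and Hspa9 and the cytosolic chaperones Dnaja1, Hspa8 and Hsp90aa1 in each of the 8 libraries, divided by each gene's wild-type mean. Wild-type replicate 1 is the highest wild-type library for all but Hspa9, and Hspa9 is higher in all 4 Mir140-null libraries (218.6 to 297.2 TPM) than in any wild-type library (159.5 to 188.5 TPM).

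Ratios within a library compare partners free of the scaling of TPM to the library total. Of 10 pairs fixed by role, the ratio did not overlap between genotypes in 4. The share of other gene pairs without overlap was not computed, so this count has no background and is only a description. Mtx2 and Hspa9, which are in these pairs, are called genes. Mtx1 over Mtx2 was 3.23 to 4.96 in wild-type and 1.66 to 2.36 in Mir140-null libraries, so the metaxins came closer to equal levels. Dnajc19 over Pam16, as listed, was 1.01, 1.01, 1.01 and 1.08 in wild-type libraries, with a spread of 0.04 (SD, n = 4). In Mir140-null libraries it was 1.92, 1.49, 1.55 and 1.37. This ratio depends on how reads were shared with Dnajc19-ps, which is uncertain. The pseudogene was listed at up to 7.91 TPM in wild-type and up to 2.58 TPM in Mir140-null libraries, so neither the near equality nor the separation is secure. Hspa9 over Grpel1 was 23.58 to 27.13 and 27.20 to 34.08. Timm8b over Timm13 was 1.79 to 2.29 and 1.5 to 1.78, so both of these last pairs were only just apart.

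The other 6 pairs overlapped. Timm17a over Timm17b was 3.17 to 4.71 in wild-type and 3.02 to 8.17 in Mir140-null libraries, so Timm17a was the main form in every library. Tomm40 over Tomm40l was 1.43 to 3.42 and 2.77 to 18.36. Timm10 over Timm9 was 0.50 to 0.73 and 0.63 to 1.01, although both enter the ring in equal number. Timm13 over Timm8a1, Hspe1 over Hspd1 and Pmpcb over Pmpca had mean ratios of 1.73, 1.76 and 4.09 in wild-type and 1.64, 1.34 and 3.04 in Mir140-null libraries.

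**Figure D4:**
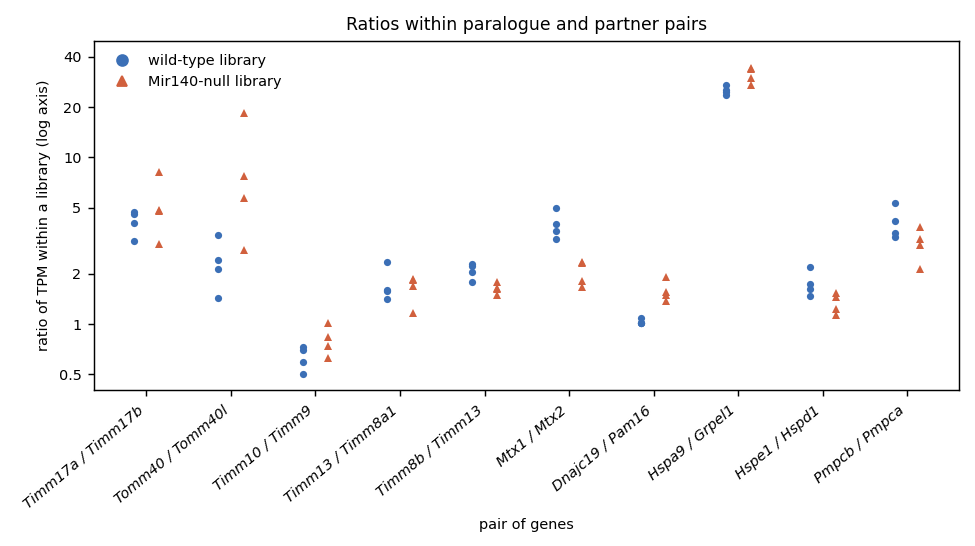
Ratio of TPM (log axis) within each library for 10 pairs of paralogues or partners, in the 4 wild-type (circles) and 4 Mir140-null (triangles) libraries. The ratios of Mtx1 to Mtx2 and of Dnajc19 to Pam16 are apart between genotypes, at 3.23 to 4.96 against 1.66 to 2.36 and at 1.01 to 1.08 against 1.37 to 1.92. The ratio of Dnajc19 to Pam16 depends on an uncertain sharing of reads with Dnajc19-ps.

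The promoters of the import genes were searched for motifs of factors known to control nuclear genes for mitochondria, in the RefSeq window (GRCm38.p6) of 250 bases before to 50 after each annotated start, on both strands. A window was found for 32 of the 36 genes; Hspa9, Timm21, Tomm40l and Tomm7 had none. CCGGAAG, read by ETS factors and by GABP (NRF-2), was in 16 of 32 (50%), against 9.93% of all 27025 genes and 18.9% of the 10993 tested genes with a window. GCGCANGCG, the NRF-1 motif, was in 6 (18.8%), against 7.03% and 14.2%. AAGATGGCG, the YY1 motif, was in 2 (Mtx1 and Timm50). TTCNNGAA, 2 units of a heat shock element, was in 8 (25%), against 9.60% and 8.4%. It can overlap CCGGAAG, as TTCCGGAA does in the Timm10, Timmdc1, Tomm22, Hspd1 and Hspe1 promoters. Hspd1 and Hspe1 share this stretch, which is counted for both. These matches are thus not separate from those of CCGGAAG.

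Of the 9 called genes with a window, 4 held CCGGAAG, namely Mtx2, Timm10, Timm23 and Tomm70a, and of the 23 others 12 did, so the motif was no more frequent among the called genes. The stretch from 95 bases before to 30 bases from the start is shown for these 4, with the motif in capitals on either strand, to place it near the start, and for Hspe1, where TTCNNGAA is in capitals too. Timm23 is at chr14:32201862-32201986 (minus strand), Mtx2 at chr2:74825717-74825841, Timm10 at chr2:84826926-84827050, Tomm70a at chr16:57121619-57121743 and Hspe1 at chr1:55088053-55088177 (all plus strand). Hspe1 and Hspd1 lie head to head on chromosome 1 and share this region.
Timm23: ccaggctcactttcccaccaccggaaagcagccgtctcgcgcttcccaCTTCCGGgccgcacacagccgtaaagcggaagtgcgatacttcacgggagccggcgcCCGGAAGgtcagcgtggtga
Mtx2: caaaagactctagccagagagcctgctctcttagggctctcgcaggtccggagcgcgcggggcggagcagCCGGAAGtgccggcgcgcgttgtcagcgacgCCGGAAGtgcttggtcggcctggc
Timm10: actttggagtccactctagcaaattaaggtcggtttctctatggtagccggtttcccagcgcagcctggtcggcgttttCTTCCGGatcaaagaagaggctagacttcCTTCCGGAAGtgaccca
Tomm70a: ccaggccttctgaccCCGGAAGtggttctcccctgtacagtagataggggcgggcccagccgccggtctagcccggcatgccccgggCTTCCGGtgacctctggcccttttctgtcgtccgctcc
Hspe1: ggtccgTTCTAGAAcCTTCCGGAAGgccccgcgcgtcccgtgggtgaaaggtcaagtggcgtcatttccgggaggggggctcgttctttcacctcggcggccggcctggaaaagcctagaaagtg

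Transcripts of 14 of 15 listed regulators of mitochondrial genes were tested, and 5 were called higher and 1 lower. These shares were 35.7% and 7.14%, against 10.5% and 6.4% of all genes tested. Nrf1 rose from a mean of 7.5 to 13.3 TPM (log2 fold change 0.75, limma adjusted p = 0.0287) and Gabpb1, the partner of Gabpa in GABP, from 18.9 to 33.9 TPM (log2 fold change 0.78, limma adjusted p = 0.0201). Tfam, which packs and transcribes the mitochondrial genome, Pprc1, a coactivator, and Atf5, a factor of the mitochondrial stress response, also rose, with log2 fold changes of 0.70, 0.84 and 0.94. Ddit3 (Chop) fell by 1.14 on the log2 scale, from 517.0 to 231.1 TPM (limma adjusted p = 0.00839). Gabpa had a log2 fold change of 0.33 (limma adjusted p = 0.126), Hsf1 of 0.30 and Ppargc1a of -0.77, and these were not called.

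A further set, named other import genes below, holds import genes outside the list together with others, such as mitochondrial proteases and cytosolic chaperones. Among its 39 tested genes, 5 were called higher and 0 lower, with a median log2 fold change of 0.09. They were Dnaja3, a matrix J-protein (log2 fold change 0.84), the proteases Lonp1 (0.65), Afg3l2 (0.61) and Parl (0.47), and Grpel2 (0.62), the paralogue of Grpel1. This was 12.8% called higher, near the 10.5% of all genes, against 27.8% of the 36 import genes, which had been chosen with the contrast known.

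Other mitochondrial gene sets are given as counts and medians. Over all genes tested, 10.5% were called higher and 6.4% lower. For 78 mitochondrial ribosomal proteins the median was 0.31, with 11 called higher (14.1%) and 1 lower (1.28%). For 82 nuclear-encoded genes of the respiratory chain and ATP synthase it was 0.06, with 8 higher (9.76%) and 1 lower (1.22%). The shares called higher in these 2 sets were thus near that of all genes. The 13 protein-coding genes of the mitochondrial genome had a median of 0.84, with 10 called higher (76.9%). These genes summed to 23113.1 to 41316.8 TPM in wild-type libraries compared with 47977.7 to 61431.8 TPM in Mir140-null libraries. The import genes thus had a median close to that of the mitochondrial ribosome and below that of the mitochondrial genome; the differences between sets were not tested.

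**Figure D5:**
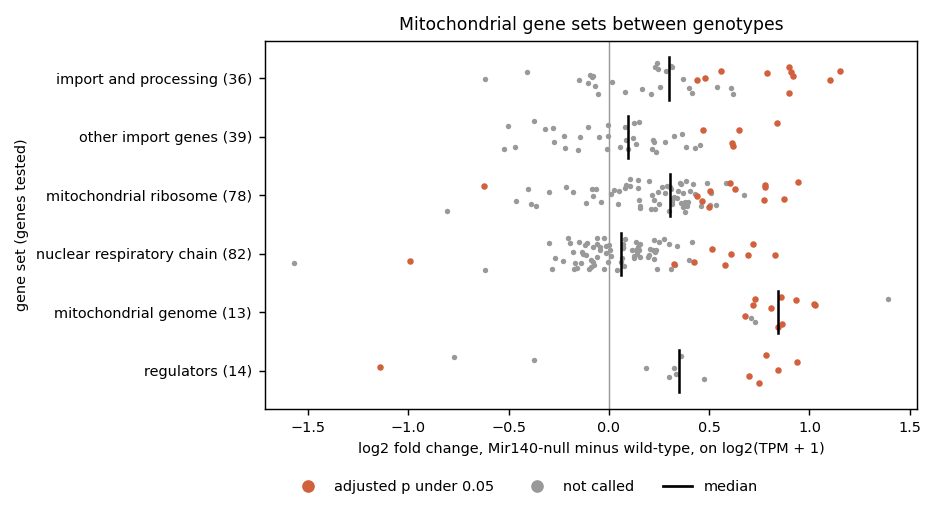
Log2 fold change (Mir140-null minus wild-type, on log2(TPM + 1)) of each tested gene in 6 sets, with called genes in orange and a black bar at the set's median. The medians are 0.30 for the import genes, 0.09 for other import genes, 0.31 for the mitochondrial ribosome, 0.06 for the nuclear respiratory chain, 0.84 for the mitochondrial genome and 0.35 for the regulators.

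The libraries themselves differed in the number of genes detected and in the levels of the import genes. Mir140-null replicates 1 and 2 had 15800 and 16056 genes at 0.5 TPM or more, against 16991 to 17950 in the other 6 libraries. Mir140-null replicate 1 was the highest of its genotype for 19 of the 36 import genes and for 9 of the 10 called genes, and replicate 4 the lowest for 20 and for 7. Replicate 2, which also had few genes, was the highest for 2 of the 36 and the lowest for 10. Replicate 3 was the highest for 12 and the lowest for 3. Without Mir140-null replicates 1 and 2, only Timm23 and Mtx2 were called (log2 fold changes 1.01 and 1.09, limma adjusted p = 0.0236 and 0.0457). The median of the 36 genes was then 0.27, and this setting was added after the data were seen. Over all genes tested, the share called higher fell as well, from 10.5% with all 8 libraries to 2.34%. Without Mir140-null replicate 2 alone 6 import genes were called, without wild-type replicate 3 alone 5, and without wild-type replicate 4 alone 6. The shares called higher over all genes were then 4.48%, 4.78% and 5.19%.

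Marker genes of other cells are given for the same libraries; in bulk RNA, fewer cells of a type and less RNA per cell cannot be told apart. All 9 chondrocyte markers were detected, and their sum was 59050.2 to 74896.4 TPM in wild-type libraries compared with 44266.5 to 62168.5 TPM in Mir140-null libraries, most of it Col2a1 with means of 57784.9 and 41414.4 TPM (limma adjusted p = 0.0695, not called). Within this list Hapln1 and Col9a1 were called lower, with log2 fold changes of -0.57 and -0.43, while Acan was called higher, with means of 552.1 and 1010.0 TPM (log2 fold change 0.88, limma adjusted p = 0.0107). The 8 skeletal muscle markers, of a tissue rich in mitochondria, summed to 64.3 to 99.3 and 34.6 to 58.3 TPM, lower in every Mir140-null library, with Myh3, Ckm and Myh8 under 0.5 TPM in all 8 libraries. Most of this sum was Tnnt3, with means of 59.4 and 39.3 TPM and overlapping ranges (limma adjusted p = 0.136). None of these markers was called, and 4 were not tested. The 5 fibroblast and perichondrium markers summed to 3153.7 to 5404.2 TPM in wild-type libraries. Mir140-null replicates 1 and 2 had sums of 822.1 and 1002.9 TPM, and replicates 3 and 4 had sums of 4721.8 and 3639.4 TPM, which lay within the wild-type range. Most of this sum was Col1a1, Col1a2 and Col3a1, none of them called; Dcn was called lower (log2 fold change -0.47), and Pdgfra was called higher, with means of 16.5 and 34.2 TPM (log2 fold change 1.03, limma adjusted p = 0.00846). Sums of the 6 erythroid markers were 645.6 to 1853.7 and 256.4 to 1725.1 TPM, of the 6 leucocyte markers 24 to 42.2 and 20 to 36.4 TPM, of the 5 adipocyte markers 27.9 to 66.7 and 27.6 to 76.2 TPM, of the 4 endothelial markers 5.36 to 20.4 and 3.37 to 26 TPM, and of the 4 osteoblast markers 7.69 to 23.1 and 3.76 to 17.1 TPM. Within the leucocyte list, Itgam (means of 2.24 and 0.909 TPM) and Lyz2 (1.16 and 0.311 TPM) were called lower. Their log2 fold changes were -0.77 and -0.74 (limma adjusted p = 0.0165 and 0.0243). The part of these differences in the values of the import genes was not tested.

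Because TPM sum to a fixed total, the share taken by the mitochondrial genome, 4.057% to 6.985% in wild-type and 8.408% to 10.092% in Mir140-null libraries, lowers the TPM of all other genes in a library. With the genes of the mitochondrial genome left out and TPM rescaled, 13 of the 36 import genes were called higher and 0 lower, the added ones being Tomm22, Timm9 and Timm29. Median-ratio scaling gave 7 higher, without Tomm40, Timm44 and Hspa9. In these 2 settings the shares called higher over all genes were 12.4% and 7.96%, against 10.5% in the fit described above.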

How the data were processed

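RNA-seq of 4 wild-type and 4 Mir140-null samples of mouse rib chondrocytes was re-analysed from the deposited values, and groups follow the labels. For each library the authors deposited TPM per gene identifier, made with Salmon from reads mapped to the mm10 transcriptome; the Salmon version and the summing step per gene are not given in the sources used here. The study's count model with RUVSeq factors could not be applied to TPM, so it was replaced, the depth of each library is unknown, and no counting interval was computed. GENCODE M21 supplied 3′UTRs and symbols (99.80% of identifiers matched). The test, for genes with 0.5 TPM in 4 of 8 libraries, was that of limma 3.58.1 (R 4.3.3, log2(TPM + 1), mean-variance trend, genotype as the only term, two-sided, Benjamini-Hochberg over all genes, called at 0.05) after the fit was checked on simulated data. Tables and figures used Python 3.11.15, NumPy 2.4.6, pandas 2.3.3 and matplotlib 3.10.9.

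The members and all lists were chosen with earlier results of these data known. Named in full are members on the study's predicted target lists and called members, at most 10 per direction; pairs were named by role; members just outside the threshold are given once. The labels give genotype and replicate number and do not say whether each sample came from a single mouse. The p-values measure the spread between these libraries. Alternatives were the pseudocount, the filter on low values, scaling, sets of genes, a factor from residuals, weights, a replicate block and leaving out libraries.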

Additional observations from a re-analysis of the deposited data

Results flagged for a closer look

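In 4 of 72 groups of 4 libraries (36 import genes in 2 genotypes), the highest or lowest library stood apart from the other 3 by more of the range than Dixon's 95% critical value allows, and chance alone flags about 1 in 20 such groups. Hspd1 was at 115.4 TPM in wild-type replicate 1, against 54.1 to 58.4 TPM in the others. Mtx1 was at 22 TPM in wild-type replicate 2, against 27.5 to 28.4 TPM. Chchd4, a called gene, was at 1.1 TPM in wild-type replicate 1, against 1.47 to 1.54 TPM. Timmdc1 was at 5.93 TPM in wild-type replicate 4, against 5.08 to 5.22 TPM.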

How the results depend on the processing

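Of the import genes, Timm23 (log2 fold change 0.98 to 1.23) and Mtx2 (1.02 to 1.20) were called under all 19 alternative settings, and Timm10 under 18; Tomm5 was called under 17 of 19, Tomm70a under 16 of 19, Chchd4 under 14 of 18, Tomm40 and Hspa9 under 12 of 19, Timm17a under 9 of 19 and Timm44 under 5 of 19. No call changed direction. The 10 genes called higher became 6 with no filter on low values and 4 with the replicate block. They became 2 when Mir140-null replicates 1 and 2 were left out (added after the data were seen). Leaving out 1 library at a time gave 5 to 12. Over all genes the share called higher also fell from 10.5%, in this order to 2.67%, 3.91%, 2.34% and 4.48% to 9.3%. A gene called lower, 1 (Pam16) in place of 0, appeared with protein-coding genes only, with quantile normalization and with 1 factor from residuals. The median of the 36 genes moved by less than the spread between libraries under every setting. With genes of a mean of at least 5 TPM the median of all genes shifted to 0.112. The share called higher over all genes rose to 17% in that setting and to 14.3% with 1 factor from residuals. In these settings 11 and 13 import genes were called higher.

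The other import genes called higher, 5, became 2 with median-ratio scaling, 3 with quantile normalization, 1 with no filter and 1 with the replicate block. They became 0 without Mir140-null replicates 1 and 2, and 1 to 5 when 1 library at a time was left out. The share called higher over all genes was 8.77% with quantile normalization, and is given above for the other settings that lowered the count. With 1 factor from residuals, 1 was called lower, in place of 0. Same-numbered libraries did not deviate together (correlations of 0.031, 0.016, 0.069 and -0.009), so the replicate block pairs libraries that share only a number. The cause of these changes was not tested. Depth behind each TPM is unknown, so counting error could not be given for low genes such as Chchd4 and Tomm40l.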
